A study of Mus musculus with 12 samples.

Results

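STAT proteins (signal transducers and activators of transcription) carry cytokine and interferon signals from receptors at the cell surface to genes in the nucleus. The 6 family genes described are Stat2, Stat3, Stat4, Stat5a, Stat5b and Stat6, out of 19938 mouse genes measured. Each was matched by its symbol in the platform annotation, and each had 1 probe set with that symbol alone, so no choice between probe sets arose. RNA came from bone marrow of C57B/6 mice, taken from the tibia and femur and grown for 6 days with 20 ng/ml GM-CSF, which drives the growth of myeloid cells and was given to all groups. Dendritic cells, labelled GM-DC, and macrophages, labelled GM-MF, were left unstimulated or given 10 ng/ml LPS (lipopolysaccharide, the bacterial ligand of Toll-like receptor 4) for 4 hours. These 4 groups held 3 arrays each, 12 in all, hybridised to Affymetrix Mouse Gene 1.0 arrays. No deletion, transgene or Cre is named in the labels. How the 2 cell types were separated, how many animals were used and whether cultures were shared are not given in the sources used here. The p-values therefore rest on the spread of arrays within their groups, which could be technical alone. For each gene 1 spread was pooled over the 4 groups of 3 arrays and drawn towards that of all genes.

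A cytokine receptor bound by its ligand activates Janus kinases (Jak1, Jak2, Tyk2), which phosphorylate STAT proteins at the receptor. The STAT proteins pair, enter the nucleus and bind promoters, and among the genes they switch on are the SOCS inhibitors that shut the pathway down again. STAT2 works with IRF9 downstream of type I interferon, STAT3 downstream of IL-6 and IL-10, and STAT4 downstream of IL-12. STAT5A and STAT5B act downstream of GM-CSF and related cytokines, and STAT6 downstream of IL-4 and IL-13. Arrays measure the RNA of these genes, not their phosphorylation.

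The deposited values are log2 expression after RMA, a method that summarises the probes of a probe set. Differences below are in log2 units, with the standard error (SE) of the limma fit after ±, and folds are 2 raised to the difference. A gene was called where limma's p, adjusted by Benjamini-Hochberg over all 19938 genes, was under 0.05. Array medians lay between 4.41 and 4.54, and correlations between arrays of a group between 0.993 and 0.996. Marker genes fitted the labels of both cell types. Without LPS, 9 of 11 dendritic cell markers were higher in GM-DC and 1 was lower, and all 10 measured macrophage markers were lower. In bulk RNA, fewer cells of a type and less RNA per cell cannot be told apart.

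The windows of 250 bases before the annotated starts of the 6 genes were searched on both strands for short letter patterns of factors that act with or on STATs. The patterns were TTCNNNGAA (GAS, the site of STAT pairs), GAAANNGAA (part of the interferon-stimulated response element, ISRE) and GGGNNTTTC (part of a kappaB site), and none of them contains another. RefSeq lists 9 such windows for the members, in build GRCm38.p6. Only 2 of the 9 held a match, and both matches were the ISRE part, 1 in Stat2 and 1 in the second of the Stat4 windows. Those 2 windows are printed because Stat2 and Stat4 were the members whose levels differed by the widest margins between unstimulated GM-DC and GM-MF, and the first Stat4 window is printed for comparison. Capitals mark the matched bases, and each sequence runs 5′ to 3′ on the strand of its gene up to the base before the start.
Stat2, chr10:128270248-128270497, plus strand: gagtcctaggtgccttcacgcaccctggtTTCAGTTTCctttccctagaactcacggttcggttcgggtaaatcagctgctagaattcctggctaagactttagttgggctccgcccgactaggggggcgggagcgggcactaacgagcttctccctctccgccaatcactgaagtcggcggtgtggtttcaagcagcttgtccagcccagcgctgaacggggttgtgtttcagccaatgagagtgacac
Stat4 second window, chr1:52007990-52008239, plus strand: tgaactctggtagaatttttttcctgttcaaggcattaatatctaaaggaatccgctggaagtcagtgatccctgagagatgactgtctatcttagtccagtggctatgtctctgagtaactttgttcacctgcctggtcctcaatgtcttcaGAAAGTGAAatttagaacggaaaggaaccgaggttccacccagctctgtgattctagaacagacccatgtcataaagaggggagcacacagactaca
Stat4 first window, chr1:51986898-51987147, plus strand: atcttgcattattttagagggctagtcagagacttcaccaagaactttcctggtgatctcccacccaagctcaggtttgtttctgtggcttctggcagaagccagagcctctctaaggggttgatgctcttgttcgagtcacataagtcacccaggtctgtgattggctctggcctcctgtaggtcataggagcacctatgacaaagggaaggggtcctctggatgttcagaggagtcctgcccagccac
The Stat2 match reads TTCAGTTTC, the pattern on the opposite strand, and covers bases 221 to 213 before the start. The Stat4 match reads GAAAGTGAA and covers bases 97 to 89 before its start. The ISRE part was present in 7.13% of 32851 windows of this length over all genes, the GAS pattern in 7.02% and the kappaB part in 3.72%. A match describes letters in this window and does not show a bound site.

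Without LPS most of the family differed between the cell types. Stat3, Stat4, Stat5a and Stat5b were higher in GM-DC and Stat2 was lower, so 5 of 6 members were called against 34.2% of all genes, and Stat6 (0.30, 95% interval 0.016 to 0.58, adjusted p = 0.102 by limma) was not. With LPS, Stat4 and Stat6 were higher in GM-DC and the others did not pass, so 2 of 6 members were called against 36.3% of all genes. LPS raised Stat2 and Stat5a in GM-DC, 2 of 6 members against 9.72% of all genes. In GM-MF it raised Stat3, Stat4, Stat5a and Stat5b and lowered Stat6, 5 of 6 members against 17.4%. The LPS response itself differed between GM-DC and GM-MF for Stat2, Stat3, Stat4 and Stat5a, 4 of 6 members against 7.59% of all genes. GM-DC with LPS against unstimulated GM-MF gave 4 of 6 called, all higher, against 33.6%, and unstimulated GM-DC against GM-MF with LPS gave 4 of 6, with 2 higher and 2 lower, against 38.7%. By direction, 18% of all genes were higher and 16.2% lower in unstimulated GM-DC than in GM-MF, and 20.9% and 15.4% with LPS. LPS raised 5.23% of all genes and lowered 4.49% in GM-DC, and raised 6.54% and lowered 10.8% in GM-MF. The response was larger in GM-DC for 4.53% and smaller for 3.06%. The gene list counts below stand beside these shares. The lists, like the members, were chosen with earlier results of these data known, so a count above a share is no independent result. These comparisons share arrays, so their counts are not independent of each other. With 6 members no share of the family stands as a result of its own, and the values of each gene follow.

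**Figure D1:**
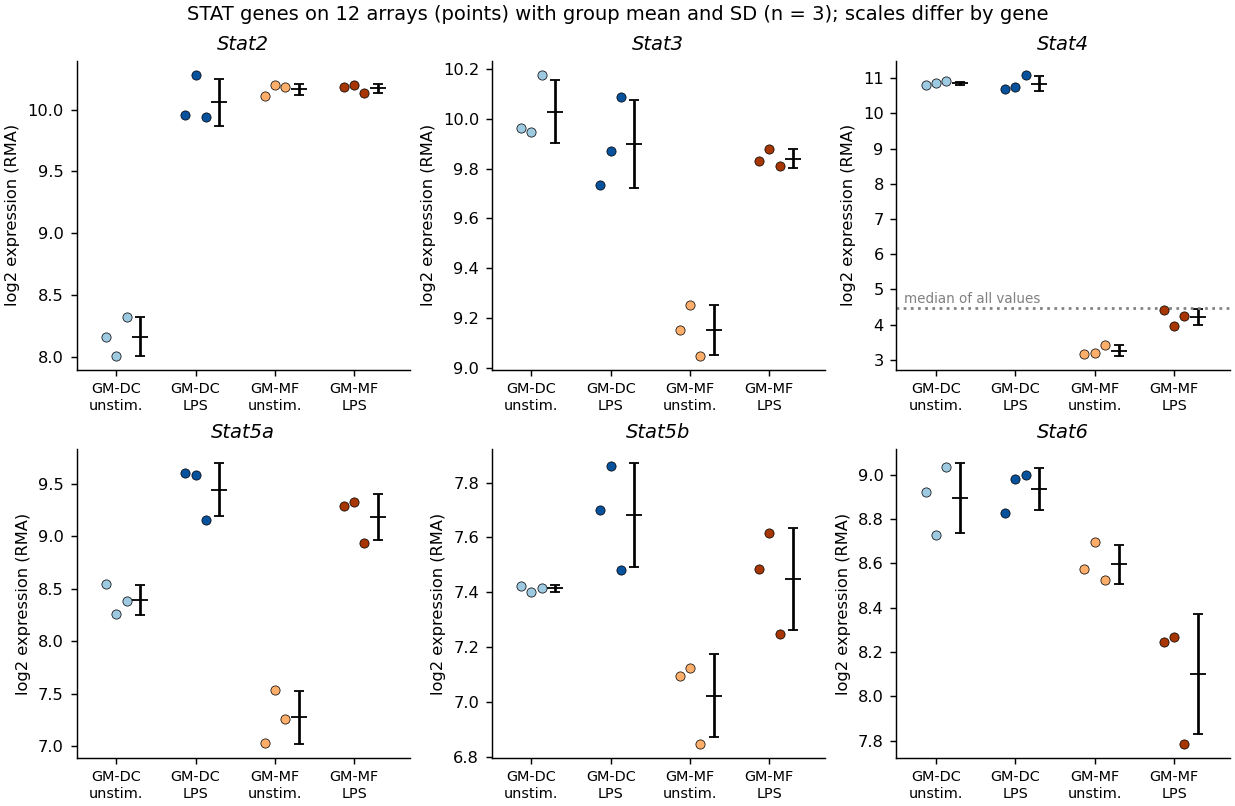
log2 expression (RMA) of the 6 STAT genes on each of the 12 arrays (points), with the mean and SD of each group of 3, on a scale of its own for each gene. Stat2 is low only in unstimulated GM-DC, Stat3 and Stat5a are lowest in unstimulated GM-MF, and Stat4 lies above 10 on all GM-DC arrays and below the median of all values (dotted, 4.48) on all GM-MF arrays.

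The groups could also be compared by whether their 3 arrays overlapped. All 6 members had non-overlapping arrays between unstimulated GM-DC and GM-MF, where 44.4% of all genes did. With LPS only 2 of 6 did, against 44.9% of all genes. The spread of group means, from lowest to highest, was 7.59 for Stat4, the fifth widest of the 19938 genes. It was 2.18 for Stat5a and 2.01 for Stat2, wider than in 93.7% and 92.9% of genes, and 0.88 for Stat3, 0.83 for Stat6 and 0.66 for Stat5b.

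**Figure D2:**
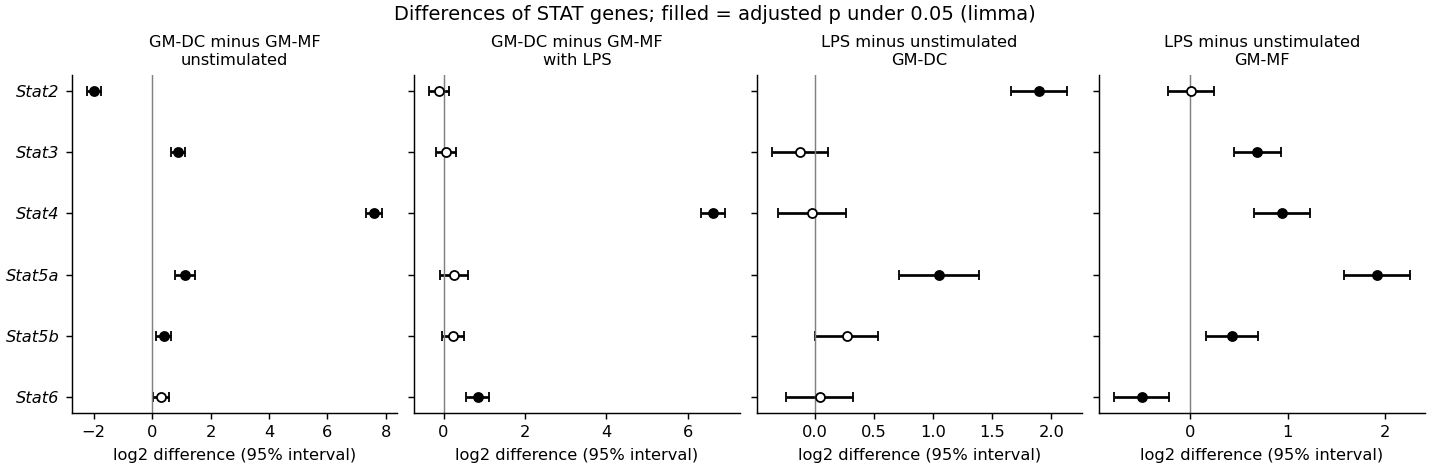
Differences of the 6 STAT genes in log2 units with 95% intervals, for GM-DC minus GM-MF without and with LPS and for LPS minus unstimulated in each cell type. Filled points are called at an adjusted p under 0.05 by limma. The 4 panels have different horizontal scales, and Stat4 stands at 7.59 and 6.63 in the first 2 panels.

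Stat2, the STAT that joins IRF9 in the interferon-activated complex ISGF3, was low in unstimulated GM-DC alone. The arrays of unstimulated GM-DC gave 8.16, 8.01 and 8.32, and GM-DC with LPS gave 9.96, 10.28 and 9.94. Unstimulated GM-MF gave 10.11, 10.20 and 10.18, and GM-MF with LPS gave 10.18, 10.20 and 10.13. All 3 arrays of unstimulated GM-DC lay below all 9 others, and the arrays of GM-DC with LPS overlapped those of both GM-MF groups. Without LPS, Stat2 was 4.00-fold lower in GM-DC (-2.001 ± 0.11, n = 3 per group, adjusted p = 1.32e-09 by limma). LPS raised it 3.72-fold in GM-DC (1.90 ± 0.11, adjusted p = 3.29e-08 by limma). In GM-MF the change was 0.0090 (95% interval -0.23 to 0.25, adjusted p = 0.977 by limma). The responses differed by 1.89 ± 0.16 (adjusted p = 3.63e-06 by limma). After LPS, GM-DC and GM-MF differed by -0.11 (95% interval -0.35 to 0.13, adjusted p = 0.508 by limma). In the order of levels, GM-MF with LPS, unstimulated GM-MF and GM-DC with LPS did not differ from their neighbours beyond the spread, and unstimulated GM-DC came last, apart from them. Beside the rise in GM-DC, 3 of 10 macrophage markers also rose with LPS (Adgre1, Mertk and Cd14) and Csf1r fell, while the mean level over the 10 genes was 6.10 to 6.27 on the unstimulated GM-DC arrays and 6.05 to 6.34 on those with LPS. The part of these markers in the Stat2 change was not tested.

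Genes known as targets of STAT2 with IRF9 were mostly lower in unstimulated GM-DC than in GM-MF and rose in GM-DC with LPS. Of 20 measured, 18 were lower in unstimulated GM-DC than in GM-MF, with a median of -4.37 against -0.011 over all genes, and 2 did not pass. Ifit3 (-7.68 ± 0.18), Rtp4 (-7.41 ± 0.21), Ifit2 (-7.20 ± 0.17) and Ifit1 (-6.62 ± 0.15) had the largest differences in signal, and the Ifit genes code for proteins that bind viral RNA. All 4, and Oasl2, lay under the median of all values in unstimulated GM-DC, at 3.30 to 4.44, where no background call shows how much of the signal is RNA, so these differences and the folds that follow are ratios of signals and not exact. LPS raised 19 of 20 in GM-DC, with a median of 2.89. The signal of Ifit1 rose 25.3-fold there, from 4.44 to 9.10, that of Ifit2 20.1-fold and that of Oasl2, a member of the oligoadenylate synthetase family, 17.6-fold. In GM-MF 13 of 20 rose, with a median of 0.70, led by Mx2 (1.81 ± 0.13), Cmpk2 (1.55 ± 0.15) and Isg20 (1.45 ± 0.15). The response was larger in GM-DC for 16 of 20 genes and smaller for 1. After LPS all 20 were lower in GM-DC, with a median of -2.62, among them Ifit3 (-4.79 ± 0.18). Among these the call of Bst2, which codes for a membrane protein that tethers viruses, was lost without replicate 1 or 2 of GM-DC with LPS or replicate 2 or 3 of GM-MF with LPS. The Oas and Ifit genes are families of similar sequence, so their probe sets may share signal.

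Irf9, which guides the STAT2 complex to DNA, followed Stat2 at a smaller scale. It was lower in unstimulated GM-DC (-0.87 ± 0.090, adjusted p = 1.43e-06 by limma) and rose with LPS by 0.94 ± 0.090 in GM-DC and by 0.32 ± 0.090 in GM-MF. The rise in GM-MF lost its call without replicate 2 or 3 of unstimulated GM-MF or replicate 1 or 2 of GM-MF with LPS, where the adjusted p reached 0.0762. Its response was larger in GM-DC by 0.62 ± 0.13 (adjusted p = 0.00618 by limma). The type I interferon receptor chains were lower in GM-DC without LPS, Ifnar1 by -1.07 ± 0.10 and Ifnar2 by -1.35 ± 0.13. Ifnar1 fell further with LPS in GM-DC (-0.41 ± 0.10), a call that was lost without replicate 1 of either GM-DC group. Ifnb1, the ligand of that receptor, had mean levels of 3.01 in unstimulated GM-DC and 3.94 with LPS, and of 4.51 and 7.46 in GM-MF. It was lower in GM-DC without LPS (-1.495 ± 0.22) and with it (-3.51 ± 0.22).

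**Figure D3:**
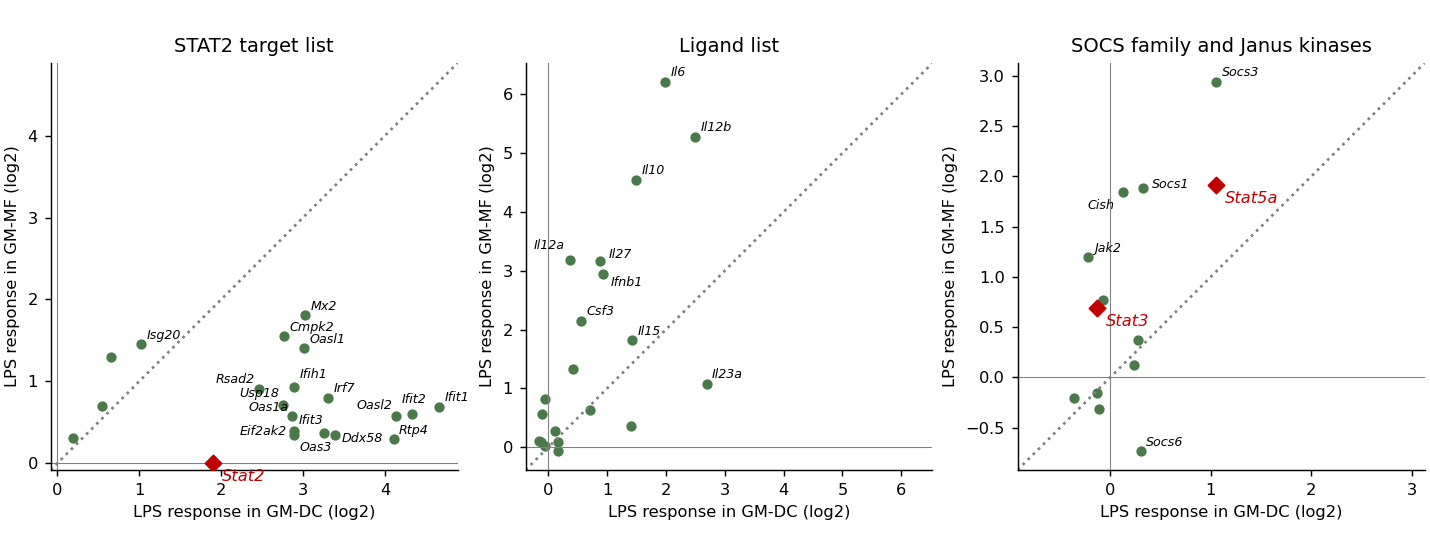
LPS responses in GM-DC (horizontal) and GM-MF (vertical), in log2 units, of genes known as STAT2 targets, of ligands of JAK-STAT receptors, and of the SOCS family with the Janus kinases. STAT members are red diamonds and the dotted line marks equal responses. Most STAT2 targets lie below the line with Stat2 (1.90 and 0.0090), while Il6, Il10, Socs1, Socs3, Cish, Jak2, Stat3 and Stat5a lie above it.

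Stat4, the STAT of IL-12 signalling that is best known in T and NK cells, was the member with the largest contrast. Unstimulated GM-DC gave 10.82, 10.86 and 10.91, and GM-DC with LPS gave 10.68, 10.75 and 11.09. Unstimulated GM-MF gave 3.17, 3.20 and 3.43, and GM-MF with LPS gave 4.42, 3.96 and 4.25. No GM-DC array came near a GM-MF array, and the GM-MF means (3.27 and 4.21) lay under the median of all values, 4.48. The files give no call of presence, so these values show neither that the RNA was missing nor that it was above background. The folds are ratios of signals and are not exact. The Stat4 signal was 193-fold higher in GM-DC without LPS (7.59 ± 0.13, adjusted p = 6.37e-14 by limma) and 99.0-fold higher with it (6.63 ± 0.13, adjusted p = 3.70e-13 by limma). In the values as deposited these were the largest differences in favour of GM-DC among the 19938 genes. LPS changed Stat4 in GM-DC by -0.022 (95% interval -0.31 to 0.27, adjusted p = 0.967 by limma). In GM-MF it rose 1.92-fold (0.94 ± 0.13, adjusted p = 0.000152 by limma). The responses differed by -0.96 ± 0.19 (adjusted p = 0.00473 by limma). In the order of levels, both GM-DC groups came first and were not called different from each other. GM-MF with LPS and then unstimulated GM-MF followed, and these were called different.

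Markers of T and NK cells were read beside Stat4, because those cells are rich in it. Of 12 measured, 3 rose above GM-MF in unstimulated GM-DC, 2 fell below it and the remaining 7 were not called, against 18% and 16.2% of all genes, and their mean level was 3.88 to 4.105 on the GM-DC arrays and 3.56 to 3.85 on the GM-MF arrays. The T cell receptor component Cd3d (3.03 and 2.86) and the NK receptor Ncr1 (2.82 and 2.85) lay under the median of all values in both unstimulated groups, and Cd3e stood at 4.86 and 4.98. The 3 higher in GM-DC were Cd8a, also carried by some dendritic cells (7.49 against 4.40), Thy1 (6.41 against 5.11) and Cd3g (4.11 against 3.69). These 3 went in the direction of Stat4, while Cd2 (3.19 against 3.82) and Klrb1c (2.53 against 2.98) were lower in GM-DC. Cd3g, Cd2 and Klrb1c lay under the median of all values in both unstimulated groups. The counts are near the shares over all genes, and the part of these markers in the Stat4 difference was not tested. With LPS the dendritic cell markers themselves moved in GM-MF: 7 of 11 were higher, led by Ccr7 (2.47 ± 0.26), Fscn1, Ccl22 and Cd83, and their mean level went from 5.53 to 5.98 on the unstimulated arrays to 6.28 to 6.70. Their part in the rises of Stat3, Stat4, Stat5a and Stat5b in GM-MF was not tested.

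Of the 3 receptor chains that signal mainly through STAT4, Il12rb2 was higher in unstimulated GM-DC (1.52 ± 0.16, adjusted p = 1.99e-06 by limma) and the other 2 did not pass. With LPS, Il12rb2 was higher in GM-DC (0.75 ± 0.16), Il12rb1 was lower (-0.86 ± 0.15) and Il23r did not pass. Il12rb1 had mean levels of 4.48 and 4.58 in GM-DC without and with LPS, near the median of all values. In GM-MF LPS raised Il12rb1 (0.61 ± 0.15) and Il12rb2 (0.57 ± 0.16), calls lost in 1 and 4 of 14 settings. None of the 3 was called for LPS in GM-DC. Of 11 genes known as STAT4 targets, 7 were higher and 2 lower in unstimulated GM-DC, against 18% and 16.2% of all genes, with a median of 0.76. The count of lower genes is near that share. Il2ra, the alpha chain of the IL-2 receptor, was higher by 5.64 ± 0.18, the IL-18 receptor chain Il18r1 by 2.98 ± 0.17 and the dendritic cell factor Irf8 by 2.75 ± 0.12. LPS raised 6 of 11 in GM-MF, among them Il2ra (2.30 ± 0.18), Furin (1.85 ± 0.17) and Irf8 (1.62 ± 0.12). In GM-DC 1 rose (Furin, 0.74 ± 0.17) and 1 fell (Il18r1, -0.69 ± 0.17). The first call was lost without replicate 1 or 2 of GM-DC with LPS, and the second without replicate 1 or 2 of unstimulated GM-DC or replicate 3 of GM-DC with LPS. The response was smaller in GM-DC for 6 of 11 and larger for none by limma's adjusted p. Stat4 too responded less in GM-DC, as given above. Of these 11 genes, 4 stand on another list too.

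Stat3, the STAT of IL-6 and IL-10, was lowest in unstimulated GM-MF. Unstimulated GM-DC gave 9.96, 9.95 and 10.18, and GM-DC with LPS gave 9.74, 9.87 and 10.09. Unstimulated GM-MF gave 9.15, 9.25 and 9.05, and GM-MF with LPS gave 9.83, 9.88 and 9.81. The unstimulated GM-MF arrays lay below all others, and the arrays with LPS of both cell types overlapped. Without LPS, Stat3 was 1.84-fold higher in GM-DC (0.88 ± 0.11, adjusted p = 1.09e-05 by limma). LPS raised it 1.61-fold in GM-MF (0.69 ± 0.11, adjusted p = 0.000407 by limma), while the change in GM-DC was -0.13 (95% interval -0.37 to 0.11, adjusted p = 0.632 by limma). The responses differed by -0.82 ± 0.16 (adjusted p = 0.00371 by limma). With LPS the cell types differed by 0.058 (95% interval -0.18 to 0.29, adjusted p = 0.756 by limma). The 3 highest groups in the order of levels did not differ from their neighbours beyond the spread.

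With LPS in GM-MF, Il6 rose by 6.21 ± 0.29 and Il10, the main cytokine that restrains macrophages, by 4.55 ± 0.21, against 1.98 ± 0.29 and 1.49 ± 0.21 in GM-DC. Without LPS, Il6 was 1.74 ± 0.29 higher in GM-DC (7.75 against 6.01), and with LPS it was lower there (-2.49 ± 0.29). Il10 lay under the median of all values in unstimulated GM-MF (3.63) and GM-DC (3.34), so its rises are ratios of signals and not exact. The receptor chains Il6ra (-1.59 ± 0.15) and Il6st (-1.35 ± 0.13), which bind IL-6 together, fell in GM-MF. Of the 10 receptor chains on that list, 3 fell in GM-MF, 2 rose and 5 did not pass. Of 16 genes known as STAT3 targets, LPS raised 10 in GM-MF and lowered 1 (Vegfa, -1.14 ± 0.28, a call lost without replicate 2 of unstimulated GM-MF), with a median of 0.48 against -0.018 over all genes, of which 6.54% rose and 10.8% fell. Socs3, the inhibitor of IL-6 receptor signalling, rose there by 2.94 ± 0.16. In GM-DC 4 rose and 2 fell, led by the survival gene Bcl2l1 (2.32 ± 0.18), whose change in GM-MF was -0.29 (adjusted p = 0.363 by limma). The response was smaller in GM-DC for 6 of the 16 and larger for 2. Among the 6, the call of Sbno2 was lost in 10 of 14 settings and that of Zfp36 in 7. Among the 10 that rose in GM-MF, Nfil3 lost its call in 9 of these settings and Zfp36 in 6. Of these 16 targets, 5 stand on another list too, among them Socs3 and Bcl2l1, which are also on the STAT5 target list.

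Stat5a was the one member called higher with LPS in both cell types. Unstimulated GM-DC gave 8.55, 8.26 and 8.38, and GM-DC with LPS gave 9.60, 9.58 and 9.16. Unstimulated GM-MF gave 7.03, 7.53 and 7.26, and GM-MF with LPS gave 9.29, 9.33 and 8.94. The arrays fell into 3 separate levels, with unstimulated GM-MF lowest, unstimulated GM-DC next and both LPS groups overlapping above. Without LPS, Stat5a was 2.18-fold higher in GM-DC (1.12 ± 0.16, adjusted p = 3.39e-05 by limma). LPS raised it 2.07-fold in GM-DC (1.05 ± 0.16, adjusted p = 0.000439 by limma) and 3.77-fold in GM-MF (1.91 ± 0.16, adjusted p = 8.83e-07 by limma). The larger response of GM-MF was called (-0.86 ± 0.22, adjusted p = 0.0268 by limma). That call was lost without replicate 1 of unstimulated GM-DC, replicate 1 or 3 of unstimulated GM-MF, replicate 3 of GM-DC with LPS or replicate 1 or 2 of GM-MF with LPS, where the adjusted p reached 0.0743. After LPS the cell types differed by 0.26 (95% interval -0.077 to 0.60, adjusted p = 0.242 by limma).

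Stat5b, the close relative of Stat5a, changed in the same directions by less. Unstimulated GM-DC gave 7.42, 7.40 and 7.42, and GM-DC with LPS gave 7.70, 7.86 and 7.48. Unstimulated GM-MF gave 7.09, 7.12 and 6.85, and GM-MF with LPS gave 7.48, 7.62 and 7.25. Unstimulated GM-MF lay below the rest, and the ranges of unstimulated GM-DC and GM-MF with LPS overlapped. Stat5b was 0.39 ± 0.12 higher in unstimulated GM-DC (adjusted p = 0.0223 by limma). This call was lost without any 1 array of unstimulated GM-DC and without replicate 3 of unstimulated GM-MF, where the difference was 0.30 (adjusted p = 0.114 by limma). LPS raised it by 0.43 ± 0.12 in GM-MF (adjusted p = 0.0265 by limma), a call lost without replicate 3 of unstimulated GM-MF or replicate 1 or 2 of GM-MF with LPS, where the adjusted p reached 0.129. In GM-DC the change was 0.27 (95% interval 0.00098 to 0.53, adjusted p = 0.254 by limma). The difference of responses was -0.16 ± 0.18 (adjusted p = 0.747 by limma). The 3 higher groups in the order of levels, GM-DC with LPS, GM-MF with LPS and unstimulated GM-DC, did not differ from their neighbours beyond the spread. Stat5a and Stat5b lie next to each other in the genome and resemble each other in sequence, and their values over the 12 arrays, which share the 4 groups, had a Pearson r of 0.889. How far their probe sets share signal was not tested.

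The GM-CSF receptor signals through STAT5. Csf2ra, its chain specific to GM-CSF, was lower in GM-DC (-1.74 ± 0.12 without LPS and -1.58 ± 0.12 with it). The signalling chain Csf2rb was higher in GM-DC (0.48 ± 0.093 without LPS and 0.40 ± 0.093 with it). LPS lowered it in GM-DC (-0.59 ± 0.093) and in GM-MF (-0.51 ± 0.093). Its near-identical copy Csf2rb2 was also called lower in both, but the signals of these probe sets may not be separable. Of 13 receptor chains on the STAT5 list, 5 were higher and 2 lower in unstimulated GM-DC, against 18% and 16.2% of all genes, led by Il2ra and Flt3 (4.34 ± 0.15), the receptor for a dendritic cell growth factor. LPS raised 8 of 15 genes known as STAT5 targets in GM-MF and 5 of 15 in GM-DC, and lowered 2 in each. The cell cycle gene Ccnd2 rose in both (2.52 ± 0.18 in GM-MF and 1.75 ± 0.18 in GM-DC). Ccnd1 rose in GM-DC (1.09 ± 0.20) and fell in GM-MF (-1.51 ± 0.20), so it was 2.14 ± 0.20 higher in GM-DC after LPS. Of these 15 targets, 9 stand on another list too, so the list is no separate account of STAT5.

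Stat6, the STAT of IL-4 and IL-13, was the one member that fell with LPS, and it did so in GM-MF. Unstimulated GM-DC gave 8.92, 8.73 and 9.04, and GM-DC with LPS gave 8.83, 8.98 and 8.999. Unstimulated GM-MF gave 8.57, 8.69 and 8.52, and GM-MF with LPS gave 8.25, 8.27 and 7.79. All GM-MF arrays lay below all GM-DC arrays, and replicate 3 of GM-MF with LPS was lowest. LPS lowered Stat6 in GM-MF (-0.50 ± 0.13, adjusted p = 0.0155 by limma). The difference was -0.34 without replicate 3 of GM-MF with LPS (adjusted p = 0.0812 by limma), and the call was also lost without replicate 2 of unstimulated GM-MF. In GM-DC the change was 0.039 ± 0.13 (adjusted p = 0.937 by limma). The difference of responses was 0.54 (95% interval 0.14 to 0.94, adjusted p = 0.109 by limma) and was not called. With LPS, Stat6 was 1.78-fold higher in GM-DC (0.83 ± 0.13, adjusted p = 0.000102 by limma), which held without any 1 array. The difference without LPS, given above, passed without replicate 3 of GM-MF with LPS (adjusted p = 0.0445 by limma), an array outside that comparison.

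Of 20 measured genes known as STAT6 targets, 10 were lower and 5 higher in unstimulated GM-DC, against 16.2% and 18% of all genes. With LPS 11 were lower and 4 higher, against 15.4% and 20.9%, so the counts of higher genes are near the shares over all genes. Arg1 (-5.07 ± 0.20), Chil3 (-5.02 ± 0.20), Mrc1 (-4.35 ± 0.16) and Mgl2 (-4.31 ± 0.23), all known from macrophages activated by IL-4, were lower in GM-DC without LPS. Irf4, a factor of dendritic cells, was 4.22 ± 0.21 higher in GM-DC with LPS. In GM-MF, where Stat6 fell, 4 of the 20 rose with LPS and 3 fell, among them Clec7a (-0.95 ± 0.16) and Batf3 (-0.68 ± 0.14), while Socs1 rose by 1.88 ± 0.11. In GM-DC 4 rose, led by Mrc1 (2.44 ± 0.16), and none fell by limma's adjusted p. The receptor chain Il4ra was higher in unstimulated GM-DC (1.03 ± 0.12) and rose in GM-MF (0.51 ± 0.12), while Il13ra1 was lower in GM-DC (-0.78 ± 0.11) and also rose in GM-MF (0.66 ± 0.11).

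Of the Janus kinases upstream of STATs, Jak2 differed in the same directions as Stat3. It was higher in unstimulated GM-DC (1.21 ± 0.12, adjusted p = 6.13e-07 by limma) and rose with LPS in GM-MF (1.19 ± 0.12, adjusted p = 4.89e-06 by limma), with a difference of responses of -1.41 ± 0.17. Tyk2 was higher in GM-DC without LPS (0.69 ± 0.11) and with it (0.53 ± 0.11), and Jak1 was lower (-0.31 ± 0.096 and -0.40 ± 0.096), the first of these calls being lost without replicate 1 or 3 of unstimulated GM-DC or replicate 3 of unstimulated GM-MF. A fall of Tyk2 in GM-DC with LPS (-0.36 ± 0.11, adjusted p = 0.0474 by limma) was lost under median centring and under cyclic loess, and in 12 of 14 settings in all, with adjusted p up to 0.190. Jak1 rose in GM-MF (0.37 ± 0.096, adjusted p = 0.0144 by limma), a call lost without replicate 1 of unstimulated GM-MF or replicate 3 of GM-MF with LPS.

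The SOCS inhibitors are themselves STAT targets. In GM-MF LPS raised 4 of 8 (Socs3, Socs1, Cish and Socs7) and lowered Socs6, against 6.54% and 10.8% of all genes. In GM-DC it raised 1 of 8, Socs3 (1.06 ± 0.16), against 5.23% of all genes. Cish, a classic STAT5 target, was 1.53 ± 0.15 higher in unstimulated GM-DC and rose by 1.84 ± 0.15 in GM-MF. Socs2, another STAT5 target, was 2.75 ± 0.11 higher in GM-DC without LPS and 2.86 ± 0.11 with it. The LPS response in GM-DC was below that in GM-MF for 4 of the 8, Socs3 the most, and above it for Socs6. Of 11 other negative regulators, LPS raised 3 in GM-DC, led by Usp18, which blocks the interferon receptor (2.75 ± 0.13), and 2 in GM-MF, the phosphatase Ptpn2 (0.81 ± 0.12) and Usp18 (0.72 ± 0.13). In unstimulated GM-DC 3 of the 11 were higher and 5 lower, against 18% and 16.2% of all genes, and Usp18 had the largest difference (-2.99 ± 0.13). Pias3, an inhibitor of STAT3, was 1.76 ± 0.15 higher in unstimulated GM-DC, and the phosphatase Ptpn6 was lower there (-1.28 ± 0.10).

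Of 20 ligands that engage these pathways, LPS raised 12 in GM-MF and 9 in GM-DC, against 6.54% and 5.23% of all genes, and none were called lower in either by limma's adjusted p. The response was smaller in GM-DC for 9, larger for 2 and not called different for the other 9. Il12b, the shared chain of IL-12 and IL-23, rose by 5.27 ± 0.24 in GM-MF and 2.49 ± 0.24 in GM-DC and reached 9.87 and 9.93. Without LPS it was 2.84 ± 0.24 higher in GM-DC. In that comparison 5 of the 20 ligands were higher and 4 lower, against 18% and 16.2% of all genes. Il12a, the other chain of IL-12, rose in GM-MF (3.18 ± 0.21), and in GM-DC its change was 0.37 (adjusted p = 0.389 by limma). Il23a, which pairs with Il12b in IL-23, rose more in GM-DC (2.69 ± 0.20 against 1.08 ± 0.20). Among 13 co-factors and kinases that act on STATs, Nmi, an interferon-induced STAT partner, rose in both (1.45 ± 0.11 in GM-DC and 0.70 ± 0.11 in GM-MF) and Src rose in GM-MF (1.18 ± 0.12). In unstimulated GM-DC 3 of the 13 were higher and 7 lower, against 18% and 16.2% of all genes. The kinase Fgr had the largest of these differences (-3.15 ± 0.18), and Mtor was higher (1.74 ± 0.10). With LPS, Fgr rose in GM-DC (1.72 ± 0.18) and fell in GM-MF (-1.18 ± 0.18).

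The genes most like each member over the 12 arrays were sought among the 3750 genes whose group means spanned at least 1 log2 unit, for the 3 members that spanned as much. The measure was Pearson's r, which describes these arrays only, since they share the 4 groups. For Stat2 the highest r was that of the probe set annotated to Egr1 (0.993), followed by Sp100, Xaf1, Trim30d and Trim14 (0.980). For Stat4 it was Hsf2 (0.999), with Rassf2, Zc3h12d, Pglyrp1 and Bmp2k following (0.997). For Stat5a it was Slc9a3r1 (0.986), followed by Ccnd2, the probe set annotated to Mir155, Il12b and Bcl2l11 (0.973). Hsf2 was 3.11 ± 0.11 and Rassf2 4.98 ± 0.10 higher in unstimulated GM-DC, both less than Stat4. Xaf1 rose with LPS by 4.21 ± 0.16 in GM-DC, and its change in GM-MF was 0.37 (adjusted p = 0.132 by limma).

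**Figure D4:**
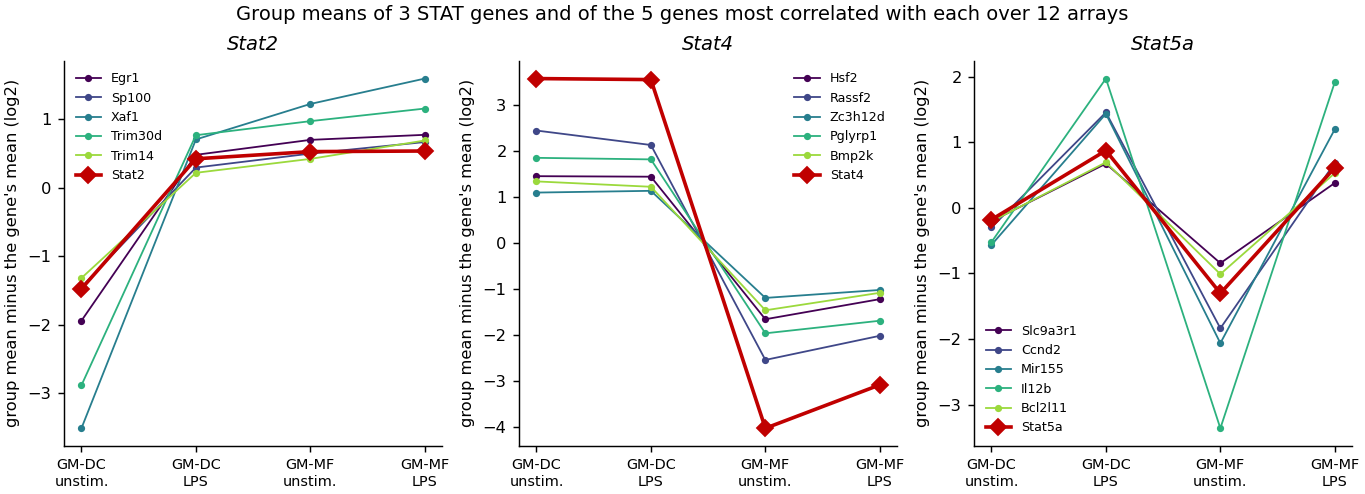
Group means, each minus the gene's own mean over the 4 groups (log2), of Stat2, Stat4 and Stat5a (red) and of the 5 genes most correlated with each over 12 arrays. The genes beside Stat2 are lowest in unstimulated GM-DC. With LPS, Sp100, Xaf1 and Trim14 were still called lower in GM-DC than in GM-MF, unlike Stat2. The genes beside Stat4 are split by cell type, and those beside Stat5a rise with LPS in both cell types.

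Genes adjoining Stat2, Stat3, Stat5a and Stat5b in RefSeq were read for the same groups, and those adjoining Stat4 and Stat6 were not analysed here. Stat5b, Stat5a and Stat3 follow each other on chromosome 11, and all 3 were higher in unstimulated GM-DC and rose with LPS in GM-MF, while Stat5a was the one of them called in GM-DC. On the other side of Stat5b, Ghdc was lower in unstimulated GM-DC (-0.44 ± 0.11), and its LPS changes did not pass. Stat2 lies between Apof and Il23a. Like Stat2, Il23a rose with LPS in GM-DC, but it rose in GM-MF too (1.08 ± 0.20), and its difference between the unstimulated cell types was -0.082 (adjusted p = 0.827 by limma). Apof changed by 0.34 in GM-DC with LPS (adjusted p = 0.0863 by limma).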

How the data were processed

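Expression was measured on 12 arrays, 3 per group. The authors deposited log2 values. The submitters' processing notes name RMA and R 3.0.2. RMA settings and the genome build are not given in the sources used here, and base 2 was taken from the range, 1.18 to 13.7. Values were used as deposited. Of 35556 probe sets, 21789 have 1 symbol in the platform annotation, 1621 several and 12146 none. The probe set with the highest mean over 12 arrays was kept, giving 19938 genes.

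limma 3.58.1 in R 4.3.3 fitted 4 group means to all arrays (lmFit, contrasts.fit, eBayes without trend, 8 residual degrees of freedom, two-sided), with Benjamini-Hochberg adjustment per comparison over 7 comparisons. The script was tested on simulated data. The number of arrays, 3 per group, limits the precision. Promoter sequences are from RefSeq (GRCm38.p6). No protein sequence was used here. Members and lists (15 lists, 156 of 165 genes measured) were chosen with earlier results of these data known. All members were named, and per list and comparison up to 4 called genes with the largest differences.

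Same-numbered arrays of unstimulated and LPS groups deviated together over all genes (r = 0.119, 0.136 and 0.363 in GM-DC, 0.257, 0.188 and 0.104 in GM-MF). In GM-DC arrays 1 and 2 matched each other's numbers as well, so whether the numbers mark pairs stays unknown. The main fit treated all arrays as unpaired, and the replicate number entered only as a block among the alternatives. Alternatives changed the probe set rule, scaling, filters, variance model, arrays in the fit, replicate block and arrays left out.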

Additional observations from a re-analysis of the deposited data

Results flagged for a closer look

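The LPS response of 4 members differed between the cell types by limma's test of the difference itself (response in GM-DC minus response in GM-MF). Stat2 responded more in GM-DC, by 1.89 ± 0.16 (adjusted p = 3.63e-06 by limma), with all 3 GM-DC arrays with LPS above all 3 unstimulated ones. Stat3 responded more in GM-MF, with a difference of -0.82 ± 0.16 (adjusted p = 0.00371 by limma). Stat4 also responded more in GM-MF, by -0.96 ± 0.19 (adjusted p = 0.00473 by limma), with both GM-MF means under the median of all values. Stat5a rose in both and more in GM-MF, by -0.86 ± 0.22 (adjusted p = 0.0268 by limma). Without each array in turn, the adjusted p of the differences ranged up to 2.55e-05 for Stat2, 0.0134 for Stat3, 0.0160 for Stat4 and 0.0743 for Stat5a.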

How the results depend on the processing

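Over 9 settings other than leaving out an array, 343 of 348 member values kept their side of the threshold, and no called value of a member changed sign. Part of this was fixed in advance. Each member had 1 probe set, so averaging probe sets could not change its differences. Filters, variance models and fits with only the arrays compared could change p but not the differences. Stat5b between unstimulated GM-DC and GM-MF was 0.30 under cyclic loess and lost its call (adjusted p = 0.0592 by limma). Stat6 between GM-DC with LPS and unstimulated GM-MF (0.34, adjusted p = 0.0640 by limma) passed with genes whose mean was above the median (0.0374), with genes on at least 3 arrays above it (0.0421), with trend and robust variances (0.0340) and with only the arrays compared (0.0385). The difference was 0.34 in each of these, so only p changed. Fewer genes were tested in the first pair, and the cause of the change in p was not tested in any of them.

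Leaving out each array in turn kept 487 of 504 member values on their side. An array outside the groups compared could change p but not the difference, so part of these values could move little. Values ranged from 0.30 to 0.44 for Stat5b and from 0.23 to 0.38 for Stat6 between unstimulated GM-DC and GM-MF. With LPS in GM-MF they ranged from 0.34 to 0.53 for Stat5b and from -0.58 to -0.34 for Stat6. Stat6 between GM-DC with LPS and unstimulated GM-MF ranged from 0.30 to 0.39. It passed without replicate 3 of GM-MF with LPS (adjusted p = 0.0245 by limma), an array outside that comparison, with the difference still 0.34. The difference of responses of Stat5a ranged from -0.99 to -0.72. The cause was not tested.

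With the replicate number as a block, 2049 genes were called for LPS in GM-DC and 3648 in GM-MF, against 1938 and 3461 without it. A replicate block within each cell type, added after the data were seen, gave 2355 and 3981. Neither changed a member's call.

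Cyclic loess moved the share of calls that were higher from 57.6% to 47.2% between the cell types with LPS and from 37.7% to 49.4% for LPS in GM-MF. For unstimulated GM-DC against GM-MF with LPS it moved from 58.2% to 47.8%. Called genes of the 15 lists were refitted after the data were seen under median centring, cyclic loess and without each array, and none of their calls turned sign in these 14 settings. List counts of 1 or 2 moved by over 1.5 times in several cases, such as the 2 STAT3 targets that fell in GM-DC (0 to 3). Larger counts also held weak calls. Il2rb, a STAT5 receptor chain higher in unstimulated GM-DC, lost its call in 10 of the 14 settings. Hopx, a STAT4 target with a smaller response in GM-DC, lost its call in 8. Signals under the median of all values have no background call here, so differences that involve them are not exact. Examples are Stat4 and Il18r1 in GM-MF, Ifnb1 and Il12a in GM-DC, and Il10, Mrc1 and Fgr in unstimulated GM-DC.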
